A study of Homo sapiens with 3 samples.

Results

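The cluster of miR-183, miR-96 and miR-182 was examined in RNA bound to Argonaute2 (Ago2) in Hep G2 cells, a human liver cancer cell line. Its 3 members, hsa-miR-183, hsa-miR-96 and hsa-miR-182, were taken by their exact names on the array, from 851 human miRNA names in all. The study immunoprecipitated Ago2 from non-treated cells and from cells harvested 24 hours after a miR-195 or miR-497 mimic, a short RNA duplex, had been introduced at 5 nM with Lipofectamine RNAiMAX, and hybridised each precipitate to an Agilent miRNA array. Each of these 3 groups was represented by 1 array, and any others were not used here. All 3 groups share the Hep G2 line, its growth medium and the anti-human Ago2 antibody. Against the non-treated array, what the mimic changed and what transfection itself changed cannot be told apart, and no difference below has a replicate check.

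A miRNA is cut from a hairpin in a longer primary transcript, and one strand of the resulting duplex, the guide, is held by Argonaute, where it pairs with mRNAs mainly through its seed at the 5′ end. miRNAs whose hairpins lie close together on the same strand are often cut from a common primary transcript, but each mature strand is then processed, loaded and degraded on its own. The miR-183 cluster is a conserved group of this kind, best known from sensory organs, where mutations in the seed of miR-96 cause hearing loss, and as a group often raised in epithelial cancers. miR-182 and miR-96 are known to repress FOXO1, a transcription factor that restrains proliferation. The arrays address how far the members of a shared transcript were present together in Ago2, and whether they kept their proportions when the cells received a mimic of another miRNA.

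The mature sequences are shown because the members are relatives by seed as well as neighbours in the genome, with bases 2 to 8, the seed, in capitals:
hsa-miR-183: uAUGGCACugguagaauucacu
hsa-miR-96: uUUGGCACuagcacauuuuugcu
hsa-miR-182: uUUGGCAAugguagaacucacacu
hsa-miR-1271: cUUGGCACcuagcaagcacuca

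They are RefSeq sequences on the GRCh38.p14 build, matched from the array names to the 5p arms, and all 3 members were found there. The build named by the array files is hg19, and those files were not used for coordinates. On the minus strand of chromosome 7, hsa-miR-183 lay at chr7:129774967-129774988, hsa-miR-96 at chr7:129774739-129774761 and hsa-miR-182 at chr7:129770447-129770470. The mature sequences of hsa-miR-183 and hsa-miR-96 were 205 bases apart, and hsa-miR-182 followed 4268 bases further downstream. Apart from MIR183, MIR96 and MIR182, no RefSeq gene overlapped the stretch of 4542 bases that they span, which was therefore intergenic in this annotation. The nearest annotated genes were LOC105375501, 1241 bases downstream, and UBE2H, which encodes a ubiquitin-conjugating enzyme, 55743 bases upstream.

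The 3 seeds shared the core UGGCA at positions 3 to 7 and differed around it. Counted from the 5′ end, the seed of hsa-miR-183 differed from that of hsa-miR-96 by A2U, and the seed of hsa-miR-96 from that of hsa-miR-182 by C8A. No other human mature miRNA of the RefSeq table had the seed of hsa-miR-183 or of hsa-miR-182, and 1, hsa-miR-1271, had the seed of hsa-miR-96. Over the whole molecule the closest pair was hsa-miR-183 and hsa-miR-182, which were identical at 18 of 22 positions compared without gaps. hsa-miR-183 and hsa-miR-96 were identical at 13 of 22 positions.

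Each miRNA was represented by 16 spots on an array, split over 2 or 4 probes. Signals are background-subtracted intensities, averaged over the spots of a probe that carried no outlier mark and summed over the probes of a miRNA. The scanner software marks spots that are well above background, and the term is used here for a probe with more than 50% of its spots so marked and for a miRNA with such a probe. Of the 851 human names, 168 were well above background in non-treated cells, 153 after miR-195 and 121 after miR-497. The spot SD given below is the spread between single spots of an array, and not the smaller error of their mean. It covers technical error within that array only, and holds nothing of the variation between cultures or precipitations. A difference below the spot SD is therefore not shown to be absent. Of the hepatocyte miRNAs used as a check of the cell line, hsa-miR-192 and hsa-miR-194 were well above background on all 3 arrays, while hsa-miR-122, the most abundant miRNA of the adult liver, was not on any, at 3.62, -0.241 and 5.62 units. Of 8 miRNAs that mark blood cells, endothelium, muscle or neurons, 1, hsa-miR-142-3p, was well above background, at 1521, 1244 and 397 units in the same order, and the sum over the 8 ranged from 393 to 1529 units. The part of this signal in the results on the cluster was not tested.

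hsa-miR-183 and hsa-miR-96 were present in the Ago2 fraction of all 3 samples, and hsa-miR-182 was not detectable in any. The hsa-miR-183 signal was 793 units in non-treated cells (spot SD 35.2), 796 units after miR-195 (spot SD 39.4) and 310 units after miR-497 (spot SD 22.1). The first pair of arrays was alike within the spot SD, and the miR-497 array was dimmer, as it was for nearly all miRNAs. On every array 3 of the 4 probes passed as well above background, with all 12 of their spots marked. The remaining probe, A_25_P00012096, stayed at background throughout, with means of -0.222, -1.66 and -1.91 units. Shares are given of the signal of the probes well above background. The brightest probe, A_25_P00012099, gave 46.3% in non-treated cells, 46.7% after miR-195 and 47.9% after miR-497. The dimmest of the 3, A_25_P00012097, gave 11.41%, 10.65% and 10.07% in the same order. After miR-497 the mean of that probe was 31.4 units with a spot SD of 7.63.

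The hsa-miR-96 signal was 470 units in non-treated cells (spot SD 35.0), 536 units after miR-195 (spot SD 20.5) and 176 units after miR-497 (spot SD 12.4). Every spot used of both probes was marked as above background on all 3 arrays. The brighter probe exceeded the dimmer by a ratio of 2.16 in non-treated cells, 2.20 after miR-195 and 2.05 after miR-497. On both transfected arrays 14 of 16 spots were used, since 2 carried an outlier mark.

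hsa-miR-182 gave a summed signal of 2.52 units in non-treated cells (spot SD 5.28), 1.04 units after miR-195 (spot SD 6.27) and 2.82 units after miR-497 (spot SD 7.71). None of its 4 probes was well above background on any array, and all 3 sums were smaller than their own spot SD. Its spots ranged from -7.01 to 11.4 units in non-treated cells, from -6.77 to 8.22 after miR-195 and from -6.75 to 9.86 after miR-497. The negative control spots, which have no target, reached 12.7, 9.47 and 11.7 units on the same arrays, and 0 of the spots used for hsa-miR-182 exceeded them. A single spot of hsa-miR-182 after miR-195, at 57.95 units, had an outlier mark and was left out, while the 3 other spots of that probe lay between 5.11 and 8.22 units. With that spot kept, the sum became 13.9 units and the miRNA was still not well above background.

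The absence of a signal for hsa-miR-182 has a limit set by the arrays. The dimmest human miRNA well above background had 11.1 units in non-treated cells, 23.7 units after miR-195 and 19.1 units after miR-497. These sums are a guide and not a threshold, since the call was made per probe from its spots. A small amount of hsa-miR-182 could be present without being detected. Probes differ in how strongly they bind, so the signals do not rank the amounts of the members. The probes of hsa-miR-182 stayed dark although hsa-miR-183, with which it shares 18 of 22 positions, was bright on the same arrays.

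**Figure D1:**
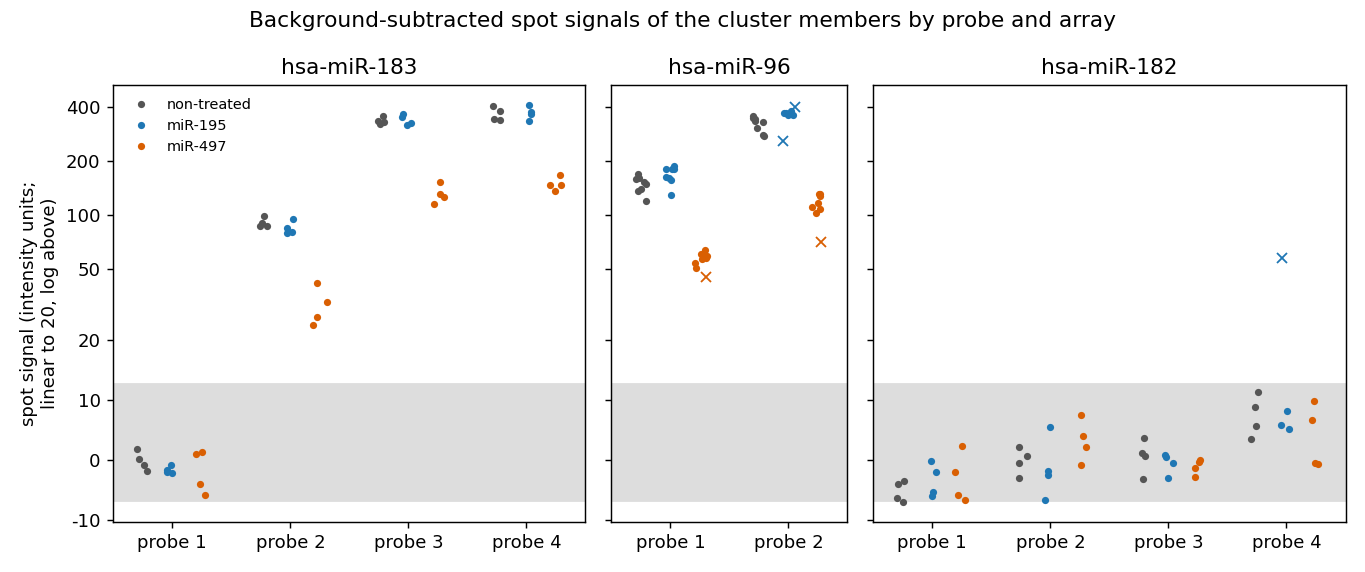
Each point is a spot, with its background-subtracted signal in intensity units on the vertical axis (linear near 0, logarithmic further out), by probe along the horizontal axis and by array in colour. Crosses are spots with an outlier mark, which were left out, and the grey band spans the negative control spots of the 3 arrays. The spots of hsa-miR-182 lie between -7.01 and 11.4 units, all below the top of the band, but for 1 cross, those of hsa-miR-96 lie above it, and 3 of the 4 probes of hsa-miR-183 lie above it.

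The opposite arms of the hairpins, which are usually discarded as passenger strands, were examined next. hsa-miR-183*, hsa-miR-96* and hsa-miR-182* each had 4 probes on the array, and hsa-miR-1271, which shares the seed of hsa-miR-96 but lies on chromosome 5, had 2. None of these 4 names was well above background on any array, with 0 of 61 spots marked in non-treated cells, 0 of 59 after miR-195 and 0 of 61 after miR-497. Their summed signals lay between -8.73 and 2.43 units in non-treated cells, between -15.1 and -5.01 after miR-195 and between -16.2 and -0.855 after miR-497. The detectable output of the locus in Ago2 was therefore the 5p arms of hsa-miR-183 and hsa-miR-96, and the seed of hsa-miR-96 was carried by no other detectable miRNA.

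The proportion of the detected members was followed within each array, where the brightness of the array cancels. The ratio of the hsa-miR-183 signal to the hsa-miR-96 signal was 1.69 in non-treated cells, 1.49 after miR-195 and 1.76 after miR-497. On the log2 scale these ratios were 0.76 (spot SD 0.13), 0.57 (spot SD 0.090) and 0.82 (spot SD 0.14). The ratio itself depends on the probes, at 0.033, -0.17 and 0.041 where the log2 values of single probes were averaged, and only its change between arrays is read. The non-treated and miR-497 arrays differed by less than the spot SD of the difference, and the ratio after miR-195 was the lowest of the 3.

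In cells transfected with miR-195, both detected members were close to their level in non-treated cells. Signals were divided by the 75th percentile of each array over the probes detected on all 3, and differences are log2 differences of these scaled signals. hsa-miR-183 had 793 units in non-treated and 796 in transfected cells, a scaled difference of 0.092 (spot SD 0.096). hsa-miR-96 had 470 and 536 units, a scaled difference of 0.28 (spot SD 0.12), or 1.21-fold. The difference of hsa-miR-183 was smaller than its spot SD and that of hsa-miR-96 was larger. Of the 2 members measured, 0 differed by 2-fold or more, where 2.72% of the 147 miRNAs measured on both arrays were higher by 2-fold or more and 0.68% lower by as much. In bulk RNA of this kind, a change in every cell and a change in a share of the cells cannot be told apart.

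The members stood at ranks 57 and 23 of the 147 miRNAs ordered from the highest difference. Their median was 0.18, beside a median of -0.01 over all 147 miRNAs, with an interquartile range from -0.19 to 0.20. Of the 5 probes measured, 4 had a higher scaled signal after miR-195, with differences between -0.0044 and 0.28. The direction rests on the scaling. A percentile over all non-control probes takes in many at background. Only 168, 153 and 121 of the 851 human names were well above background on the non-treated, miR-195 and miR-497 arrays. With that percentile the cluster median was -0.35, beside -0.55 over all miRNAs. The split of all miRNAs past 2-fold was then 1 higher and 9 lower in place of 4 and 1. With quantile normalization the cluster median was -0.027, beside -0.20 over all miRNAs.

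In cells transfected with miR-497, the signals of hsa-miR-183 and hsa-miR-96 were 39.1% and 37.5% of those in non-treated cells before scaling, and both scaled differences were slightly above 0. The whole miR-497 array was dimmer: its 75th percentile was 263 units, against 778 for miR-195 and 827 for non-treated cells, and before scaling the median miRNA was at 32.5% of its non-treated signal. hsa-miR-183 had 793 units in non-treated and 310 in transfected cells, which after scaling was a difference of 0.29 (spot SD 0.12), or 1.23-fold. hsa-miR-96 had 470 and 176 units, which after scaling was a difference of 0.23 (spot SD 0.15), or 1.18-fold. Both members thus kept a larger share of their signal than the median miRNA with this background subtraction. With another background correction, normexp, the median scaled difference over all miRNAs was 0.4581. hsa-miR-183 was then above it at 0.5470, and hsa-miR-96, at 0.4580, was not.

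Of these 2 members, 0 passed 2-fold after scaling, where 3.39% of 118 miRNAs were higher by 2-fold or more and 0% lower by as much. They stood at ranks 22 and 34 of 118, with a median of 0.26 beside 0.03 over all miRNAs and their interquartile range from -0.12 to 0.26. All 5 probes had a higher scaled signal, between 0.12 and 0.35, and all 5 were dimmer before it. Without scaling the differences were -1.36 for hsa-miR-183 and -1.42 for hsa-miR-96, both past 2-fold, but so were 113 of the 118 miRNAs, all lower, in place of 4 higher and 0 lower.

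The transfected arrays were also set against each other, a comparison that leaves the non-treated array out. On the scaled log2 scale hsa-miR-183 was 0.20 higher after miR-497 (spot SD 0.13) and hsa-miR-96 differed by -0.04 (spot SD 0.12). The first difference exceeded its spot SD and the second did not. Of the 2 members, 0 passed 2-fold, where 1.71% of 117 miRNAs were higher by 2-fold or more and 0% lower by as much. They stood at ranks 30 and 80 of 117, with a median of 0.08 beside 0.02 over all miRNAs. Before scaling hsa-miR-183 was at 38.9% and hsa-miR-96 at 32.8% of the signal after miR-195. The split of all miRNAs past 2-fold was then 0 higher and 114 lower, in place of 2 and 0. The comparisons share arrays with each other and are given side by side for that reason.

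**Figure D2:**
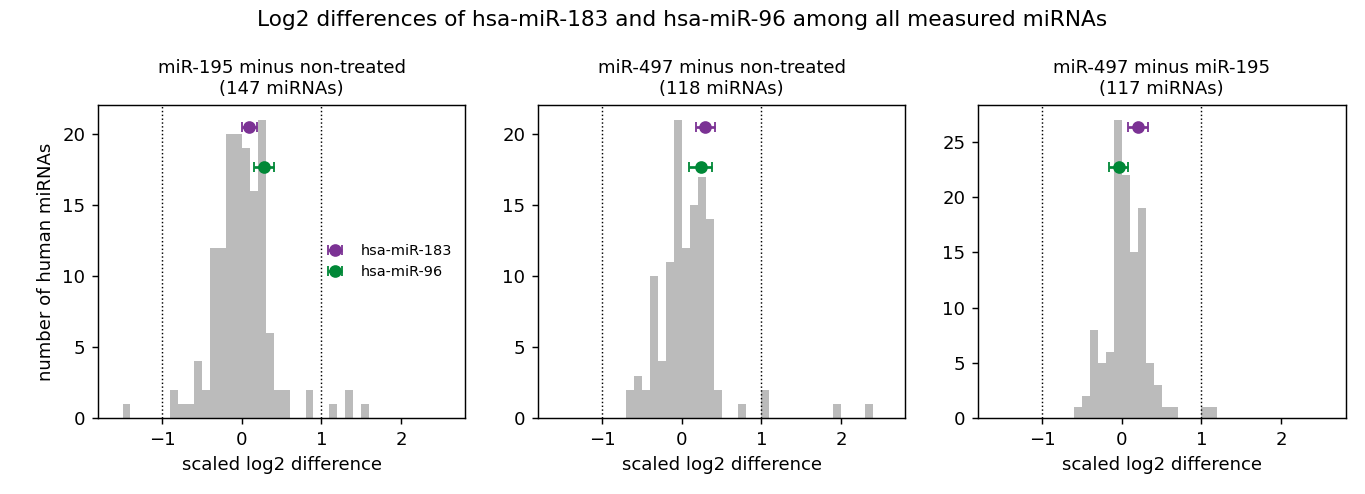
Grey bars count the human miRNAs at each scaled log2 difference (horizontal axis) in the 3 comparisons, without the transfected miRNAs. Coloured points mark hsa-miR-183 and hsa-miR-96 with their spot SD at an arbitrary height, and dotted lines mark 2-fold. Both members lie inside the dotted lines in each comparison, between -0.04 and 0.29.

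The members of a common transcript were then compared for how equal their differences were. The gap between hsa-miR-183 and hsa-miR-96, in which scaling by a single factor per array cancels, was 0.18 between the miR-195 array and the non-treated one (spot SD 0.15), 0.06 between the miR-497 array and the non-treated one (spot SD 0.19) and 0.24 between the transfected arrays (spot SD 0.17). Over all pairs of measured miRNAs the median gap was 0.28, 0.29 and 0.21 in the same order. The gap of the cluster was thus below the median gap in both comparisons with non-treated cells and above it between the transfected arrays. Leaving out each probe of hsa-miR-183 and hsa-miR-96 in turn gave gaps from 0.17 to 0.20, from 0.0079 to 0.085 and from 0.17 to 0.28.

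Other clusters gave a scale for such gaps. Opposite arms on the array carry a hairpin number for hsa-miR-24, hsa-miR-19b and hsa-miR-92a, which can therefore come from another hairpin as well. The ranges of the miR-23a and miR-17 clusters thus need not reflect a single transcript. The range from the lowest to the highest member between the miR-195 array and the non-treated one was 0.41 in the miR-106b cluster, 0.55 in the miR-200b cluster, 0.22 in the miR-23a cluster and 0.38 over the 6 members of the miR-17 cluster. Between the miR-497 array and the non-treated one these ranges were 0.49, 0.34, 0.27 and 0.48. Between the transfected arrays they were 0.13, 0.37, 0.25 and 0.40, so that the miR-183 cluster, at 0.24, had a wider range than miR-106b there. A range grows with the number of members, which was 2 measured for the miR-183 cluster, 3 for 3 of the other clusters and 6 for miR-17. The other clusters had all of their members well above background on all 3 arrays, and the miR-183 cluster had 2 of 3. The cluster medians between the miR-497 array and the non-treated one were 0.26 for the miR-183 cluster, 0.16 for miR-106b, 0.17 for miR-200b, -0.14 for miR-23a and 0.19 for miR-17. Between the miR-195 array and the non-treated one they were 0.18, 0.05, -0.04, -0.31 and -0.09 in the same order. Between the transfected arrays they were 0.08, 0.06, 0.23, 0.02 and 0.21, with miR-200b and miR-17 above the miR-183 cluster.

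**Figure D3:**
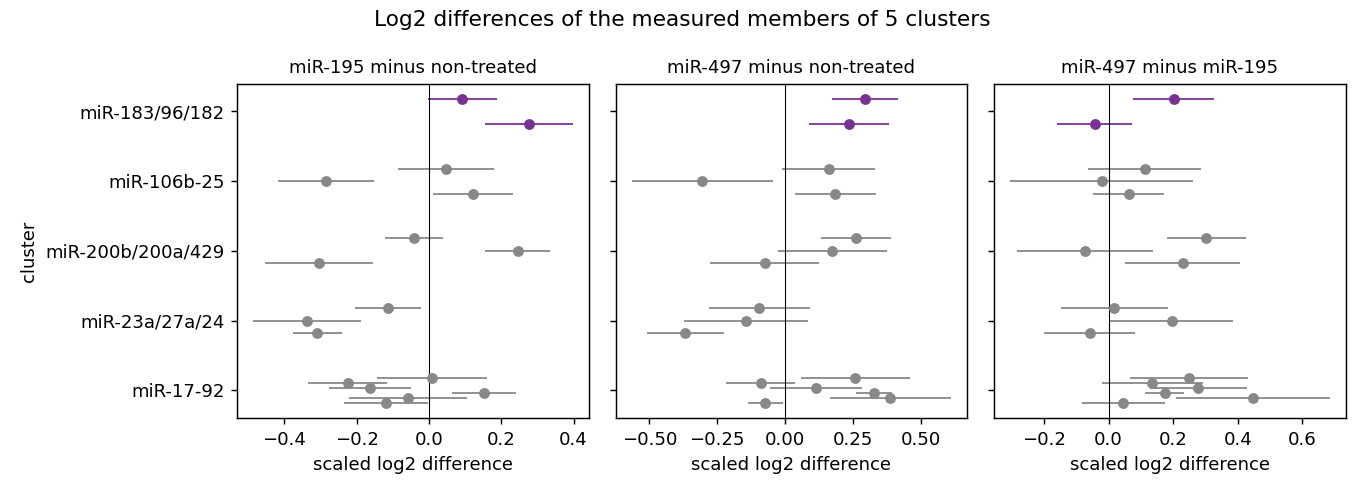
Points are the scaled log2 differences (horizontal axis) of the measured members of 5 clusters (vertical axis) in the 3 comparisons, with bars for the spot SD, and the miR-183 cluster is in purple. Its points, hsa-miR-183 above and hsa-miR-96 below, lie 0.18, 0.06 and 0.24 apart. hsa-miR-182 has no point because it was not well above background.

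The pattern over the 3 arrays was used to find the miRNAs most like each member. Likeness was the Euclidean distance between scaled log2 values, each centred on its own mean over the 3 arrays, among miRNAs well above background on all of them, and with so few arrays many miRNAs lie close together. The nearest to hsa-miR-183 were hsa-miR-28-5p at a distance of 0.022, hsa-miR-550* at 0.032 and hsa-miR-20a at 0.043. Those nearest to hsa-miR-96 were hsa-miR-320b at 0.012, hsa-miR-582-5p at 0.017 and hsa-miR-320d at 0.022. The members of the cluster were 0.18 apart, which placed hsa-miR-96 at rank 38 of 116 from hsa-miR-183 and hsa-miR-183 at rank 34 of 116 from hsa-miR-96, beside median distances of 0.25 and 0.26.

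The table of normalized values deposited for the series gives hsa-miR-183 a very different course. The log2 values of hsa-miR-183 there were 8.56 for non-treated cells, 7.80 for miR-195 and 10.98 for miR-497, a difference of 2.42 between miR-497 and non-treated cells and of 3.18 between the transfected cells. For hsa-miR-96 the values were 7.93, 8.11 and 6.55, a difference of -1.39 between miR-497 and non-treated cells, and hsa-miR-182 was at the floor of 0 on each array. In that table the members thus differed in opposite directions after miR-497. The median difference there over 135 miRNAs was -1.43 between miR-497 and non-treated cells, so hsa-miR-96 lay close to the median and hsa-miR-183 far above it. For hsa-miR-183 and hsa-miR-96 the table equalled the log2 of the software total per miRNA, with no scaling between arrays.

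The spots of hsa-miR-183 do not show this increase: all 3 of its bright probes were dimmer after miR-497 than on either of the others. Its software total there was 2017 units, of which its own probe totals gave 82.7, and the remaining 1934 units made up 95.9% of it. The remainder equalled the total of hsa-miR-17*, the closest detected name before hsa-miR-183 in alphabetical order. That total was itself 36.1 units from the probes of hsa-miR-17* and 1898 units from hsa-miR-17, the guide strand of the same hairpin. On the non-treated array 377 units were recorded, of which 206 came from the probes of hsa-miR-183 and 171 equalled the total of hsa-miR-17*. On the miR-195 array 222 units were recorded, with 205 from its own probes and 16.9 equal to the total of hsa-miR-1825.

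The first probe of hsa-miR-183 is the dark one, A_25_P00012096, whose total after miR-497 was -0.507 units (error 0.951). hsa-miR-96, whose first probe was above 3 times its error on each array, had no remainder in its totals of 244, 276 and 93.4 units. Whether the first probe decides if a remainder is added was not tested. From its own probe totals alone, before scaling, hsa-miR-183 differed by -1.32 between the miR-497 array and the non-treated one and by -0.0052 between the miR-195 array and the non-treated one. The corresponding values of hsa-miR-96 were -1.39 and 0.18. With the remainders left out, hsa-miR-183 and hsa-miR-96 thus differed in the same direction after miR-497. By spot signals before scaling, 116 of 118 miRNAs were dimmer on that array than in non-treated cells. The shared direction is therefore not particular to the cluster.

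**Figure D4:**
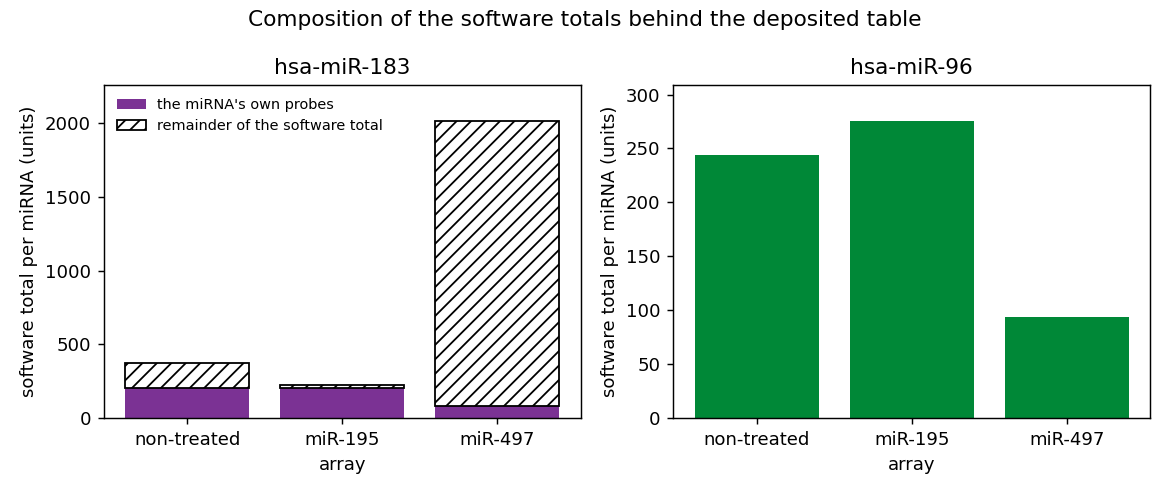
Bars give the software total per miRNA (vertical axis, in units on a linear scale from 0 that differs between the panels) on each array, split into the totals of the miRNA's own probes (filled) and the remainder (hatched). The remainder of hsa-miR-183 is 171, 16.9 and 1934 units on the non-treated, miR-195 and miR-497 arrays, and hsa-miR-96 has none.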

How the data were processed

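RNA from Ago2 immunoprecipitates of Hep G2 cells carried a Cy3 label on Agilent human miRNA arrays, 1 per group, grouped by their labels. The deposited scanner files hold spot intensity from Agilent Feature Extraction 10.7.1.1 per the file headers, background-subtracted and detrended within an array, unscaled between arrays, with flags and software totals. The authors also deposited a log2 table made in GeneSpring, whose header names a 75th percentile shift. No spot was saturated.

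Outlier spots, by non-uniformity or within their population, were left out. Probe means were summed per miRNA, scaled to the 75th percentile and converted to log2. The spot SD of a sum combines the probe SDs, and that of a difference both arrays. With 1 array per group no test was made. The steps were tested on spots simulated from the non-treated array alone. The simulated arrays did not differ in brightness, so scaling of a dimmer array such as miR-497 was not tested. The miRNAs named, by rule, were the opposite arms, the seed relative, 4 other clusters, marker miRNAs and the 3 nearest by pattern, without the transfected miRNAs; hsa-miR-17, hsa-miR-17* and hsa-miR-1825 were named after their values were seen. Members and lists were chosen with earlier results of these data known. Alternatives covered scaling, background (normexp, limma 3.58.1, offset 50), probe summary, each probe left out in turn, spots, detection and the deposited table.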

Additional observations from a re-analysis of the deposited data

How the results depend on the processing

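With 1 array per group no replicate could be left out, and each array, the dimmer miR-497 array included, enters 2 of the 3 comparisons. No paired analysis was possible because each group held 1 array, so the groups share fewer than 2 replicate numbers and no test was made. Of the alternatives, the sum of the totals per probe was added with the data in view. Across these settings, cluster medians, gaps, member ratios and counts past 2-fold were compared with the main values. They stayed within the spot SD, or within 1.5 times for counts, in 143 cases and moved in 73. Gaps and ratios cannot move where only the scaling factor of an array changes, so part of the 143 was fixed in advance. Medians and gaps with each probe left out in turn are also counted there. Values of single members stayed in 56 and moved in 34. The causes were not tested unless the setting itself shows them. Outside the software totals and the deposited table, hsa-miR-183 ranged from -0.45 to 0.34 for miR-195 and from -1.36 to 0.55 for miR-497 against non-treated cells, and hsa-miR-96 from -0.26 to 0.53 and from -1.42 to 0.46. hsa-miR-182 stayed not well above background with flagged spots kept and with all spots required. A miRNA with no probe well above background cannot be told from background here, which limits every statement on hsa-miR-182.

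Values are given for miR-195 against non-treated, miR-497 against non-treated and miR-497 against miR-195, in this order. Cluster medians were -0.35, -1.12 and -0.77 with the percentile of every non-control probe, 0.098, -1.39 and -1.48 without scaling, and 0.43, -1.04 and -1.47 with spike-in scaling. They were -0.21, 2.17 and 2.37 with the software total and -0.29, 0.52 and 0.81 in the deposited table. The last 2 became 0.37 and 0.20 with median scaling and 0.50 and 0.35 with normexp, and the first 2 became -0.027 and 0.11 with quantile normalization. The first became 0.30 where all spots had to be well above background. Without the filter on dim miRNAs, which lets the background of hsa-miR-182 in, the first was 0.092 and the last 0.20. Medians over all miRNAs moved too. They were -0.55, -1.36 and -0.82 with the percentile of every non-control probe. Without scaling they were -0.10, -1.62 and -1.54, and with spike-in scaling 0.24, -1.28 and -1.53. With normexp they were 0.03, 0.46 and 0.46, so the cluster, at 0.35, lay below the last. The gaps within the cluster became 1.47, 1.58 and 3.05 without the filter on dim miRNAs. With the software total and in the deposited table the gaps became 0.94, 3.81 and 4.74.

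Counts of miRNAs past 2-fold, 5, 4 and 2 in the report, became 10, 111 and 17 with the percentile of every non-control probe, 2, 10 and 7 with normexp, 17, 27 and 22 with the software total, 17, 115 and 116 in the deposited table, and 166, 262 and 270 without the filter. The last 2 were 113 and 114 without scaling and 98 and 114 with spike-in scaling. The first and last were 2 and 1 with the mean of log2 probes and 8 and 4 with the sum of probe totals, and the last was 1 with quantile normalization and 1 with all spots required. The log2 ratio of hsa-miR-183 to hsa-miR-96 on the non-treated, miR-195 and miR-497 arrays was 0.033, -0.17 and 0.041 with the mean of log2 probes, 0.19, 0.015 and 0.33 with the brightest probe, -0.24, -0.43 and -0.18 with the sum of probe totals, and 0.63, -0.31 and 4.43 with the software total and in the deposited table. The ratio was lowest on the miR-195 array in each of these.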
